A study of Mus musculus with 8 samples.

Results

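The p53 target genes described here are 33 genes taken from a list of p53 pathway and target symbols given for the work and found by symbol, of 29955 gene names measured. The list holds p53 itself (Trp53), its inhibitors Mdm2 and Mdm4, and genes that p53 is known to switch on or that act beside it in feedback, death receptor signaling, apoptosis, DNA repair, cell cycle control and metabolism. All 33 were found in the data.

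RNA-seq of mouse bone marrow compared cells from WT and Ripk3-KO mice. Ripk3 is a kinase that induces necroptosis through the protein Mlkl. The study's stated aim for the RNA-seq was the part of tumor repression by Ripk3 that does not depend on Mlkl. LSK cells lack lineage markers and carry Sca1 and Kit, and hold the stem cells and early progenitors, while LK cells carry Kit without lineage markers and hold mostly myeloid progenitors. There were 4 groups of 2 libraries each: WT LSK, Ripk3-KO LSK, WT LK and Ripk3-KO LK. Mice of all groups are labelled strain CD57BL6/J, with no age, and with wild type or Ripk3-KO as the genotype and no description of the allele. The labels say that the mice received no treatment, whereas the study's text on the RNA-seq says that both genotypes had weekly low-dose X-ray exposures and that cells were collected about a month after the last. It is not stated whether the 2 libraries of a group came from separate mice, so p-values measure the spread between libraries, which may be technical.

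p53 is a transcription factor that is held at a low level by Mdm2, which marks it for degradation, and by Mdm4, which binds and blocks it. After DNA damage or other stress, p53 is stabilized and switches on genes that stop the cell cycle, repair DNA, trigger apoptosis or restrain p53 itself. In blood stem cells p53 is known for limiting proliferation and for the response to radiation.

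Each value, called signal here, is the number of reads of a gene in a library, scaled for the library's total and a library factor, with no division by gene length. The library factors were set within each population, so signal of LSK and LK libraries is not on one scale. The libraries held between 9782166 and 16280811 reads, so 1 read was worth 0.0621 to 0.104 signal and 3 reads, the level below which a 0 cannot be read as absence, 0.186 to 0.311. That floor covers counting error only. Differences are Ripk3-KO minus WT on the log2(signal + 1) scale, which understates the change of low genes, and were tested with limma over all genes whose mean signal reached 1. A gene is said to have risen or fallen when its Benjamini-Hochberg adjusted p was under 0.05.

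Of the 6 cell cycle genes of the list, 3, Plk2, Plk3 and Sertad1, had lower signal in the Ripk3-KO libraries of both populations. Over all genes tested, both knockout libraries lay below both WT libraries for 23.2% in LSK and 19.9% in LK. The share below WT in both populations together was not counted. The genes of p53 and its inhibitor Mdm2 did not pass the test in either population. Plk2 and Sertad1 fell in both LSK and LK cells, Plk3 fell in LK cells, and Ccng1 was the 1 member that rose, in LSK cells. Of the death receptors, the apoptosis genes and the DNA repair genes of the list, 0 passed limma's test in either genotype comparison, with 4 of them in LSK and 3 in LK at an unadjusted p under 0.05, as were 3011 of 16817 and 915 of 13949 genes. Among these genes edgeR called 0, and DESeq2 called 2 in LSK, Perp and Ercc5, where it called 613 genes in all against 363 by limma.

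The libraries matched their labels. Ripk3 signal was 162 and 168 in WT LSK, 3.38 and 1.08 in Ripk3-KO LSK, 144 and 149.7 in WT LK, and 16.2 and 10.6 in Ripk3-KO LK. Every knockout library lay far below every WT library, and limma gave a log2 fold change of -5.78 in LSK (adjusted p = 2.39e-09) and -3.39 in LK (adjusted p = 1.07e-05). Ly6a, the gene of Sca1, had a signal of 141, 192, 187 and 237 in the LSK libraries and at most 4.12 in the LK libraries, and Kit was between 223 and 464 in all 8. Xist, expressed from the inactive X of female cells, had a signal of 108 to 413 in the 4 WT libraries and 0 to 1.27 in the 4 Ripk3-KO libraries. The summed signal of 4 Y-linked genes was 0 in each WT library and 65.1 to 135 in the Ripk3-KO libraries, with Ddx3y, 1 of the 4, at 0 in all 8 libraries. Genotype and sex therefore cannot be told apart in any genotype comparison.

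Trp53 encodes p53. Its signal was 5.46 and 4.97 in WT LSK, 13.3 and 18.3 in Ripk3-KO LSK, 3.19 and 3.59 in WT LK, and 1.52 and 3.79 in Ripk3-KO LK. In LSK cells both knockout libraries lay above both WT libraries, whereas in LK cells the groups overlapped. The log2 fold change was 1.42 (SE 0.58) in LSK, with an unadjusted p of 0.0231 and an adjusted p of 0.201 in limma, so the call was not made. It was -0.34 (SE 0.57; limma adjusted p = 0.961) in LK, and 0.13 without Ripk3-KO LK replicate 1. A pseudogene matches a Trp53 transcript with 95.0% identity over 1170 bases, so its values are uncertain.

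Mdm2 is the ubiquitin ligase that targets p53 for degradation, and is itself a p53 target. Its signal was 110.2 and 89.4 in WT LSK, 115 and 96.2 in Ripk3-KO LSK, 73.9 and 84.7 in WT LK, and 84.8 and 79.2 in Ripk3-KO LK. The genotypes overlapped in both populations. The log2 fold change was 0.08 (95% normal-approximation interval -0.36 to 0.52; limma adjusted p = 0.890) in LSK and 0.05 (-0.39 to 0.49; limma adjusted p = 0.984) in LK. These intervals take the SE with the normal distribution, and limma's moderated t would give wider ones. The LSK value was -0.03 with libraries centred on their medians, -0.07 without WT LSK replicate 2 and -0.04 without Ripk3-KO LSK replicate 1, and the LK value was -0.05 without WT LK replicate 1. Mdm4, which blocks p53 without degrading it, was at 0 in WT LSK replicates 1 and 2, Ripk3-KO LSK replicate 1, WT LK replicate 1 and Ripk3-KO LK replicate 2. In the other libraries it had 0.685 in Ripk3-KO LSK, 0.382 in WT LK and 0.190 in Ripk3-KO LK, so it was too low to test, and it has a pseudogene copy with 94.1% identity over 4184 bases.

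Among the feedback genes, Ccng1 encodes cyclin G1, which works with protein phosphatase 2A to activate Mdm2. Its gene lies on chromosome 11 (chr11:40748552-40755311, minus strand, GRCm38). Ccng1 signal was 44.0 and 26.0 in WT LSK, 68.4 and 76.7 in Ripk3-KO LSK, 50.1 and 46.9 in WT LK, and 62.5 and 63.3 in Ripk3-KO LK. The knockout libraries lay above the WT libraries in both populations, and the WT LSK libraries differed from each other more than any other pair. Ccng1 rose in LSK by a log2 fold change of 1.07 (SE 0.28; limma adjusted p = 0.0480; DESeq2 adjusted p = 0.0291), a call that edgeR did not make (adjusted p = 0.0970). In LK the log2 fold change was 0.37 (SE 0.28; limma adjusted p = 0.898). The LSK call was kept without WT LSK replicate 1 (log2 fold change 1.44, adjusted p = 0.0318) and lost without each of the other 7 libraries in turn, with limma adjusted p from 0.0721 to 0.219, the highest without WT LSK replicate 2 (log2 fold change 0.71). It was also lost with a pseudocount of 0.1 (adjusted p = 0.0662), no filter on low values (0.0965), libraries centred on their medians (0.0761), a block for replicate number (0.0568) and each population alone (0.136).

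The 250 bases before the RefSeq start of Ccng1 (GRCm38.p6, chr11:40755287-40755536, minus strand) are shown because Ccng1 is the member that rose. Capitals mark a match to the p53 half-site, a 10-base motif, which begins 185 bases before the start.

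Ccng1: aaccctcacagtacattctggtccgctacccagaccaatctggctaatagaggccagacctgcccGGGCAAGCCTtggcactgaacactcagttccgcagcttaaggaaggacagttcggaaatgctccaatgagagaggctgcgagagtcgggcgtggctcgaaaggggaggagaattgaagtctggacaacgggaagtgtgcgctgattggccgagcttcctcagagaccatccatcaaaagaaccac

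The other feedback genes did not pass the test in either population. Fbxw7, part of a ubiquitin ligase for cyclin E and Myc, had a signal of 21.1 to 35.5 in the LSK libraries and 11.7 to 16.0 in the LK libraries. Ptp4a3, a phosphatase gene, had 159.8 to 275 in the LSK libraries and 91.1 to 146 in the LK libraries. In LSK cells the genotypes overlapped for both genes. In LK cells both knockout libraries were above WT for Fbxw7 and below WT for Ptp4a3, with limma adjusted p of 0.950 and 0.838.

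Death receptor genes were low. Fas, whose product starts the extrinsic death pathway, ran from 0.0763 to 5.14 signal over the 8 libraries. Tnfrsf10b, the receptor of the death ligand TRAIL, ran from 2.44 to 18.9, and Eda2r, a receptor of the TNF receptor family, from 0.161 to 6.36. None of the 3 passed limma's test, with 0 at an unadjusted p under 0.05 in either population and 0 called by edgeR or DESeq2, which gave no adjusted p for Fas and Eda2r in LK. The widest gap was that of Eda2r in LSK, with 6.36 and 2.69 in WT against 0.161 and 3.23 in Ripk3-KO, groups that overlapped (log2 fold change -1.23, limma adjusted p = 0.359). In LK Eda2r went the other way, with 0.815 and 0.534 in WT and 2.73 and 0.931 in Ripk3-KO (log2 fold change 0.68, limma adjusted p = 0.925). Eda2r lies on chromosome X, and genotype and sex cannot be told apart in these libraries. Tnfrsf10b has a pseudogene copy with 97.5% identity over 405 bases and is uncertain.

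Of the 7 apoptosis genes, Perp differed most in LSK. Perp encodes a membrane protein of cell junctions that p53 induces during apoptosis. Its signal was 23.6 and 29.6 in WT LSK, 5.71 and 8.02 in Ripk3-KO LSK, 5.64 and 2.75 in WT LK, and 2.79 and 5.71 in Ripk3-KO LK. The LSK genotypes did not overlap, and the LK genotypes had almost the same values in opposite order. The LSK log2 fold change of -1.82 (SE 0.55) missed the threshold in limma (adjusted p = 0.0884) and edgeR (adjusted p = 0.150) and passed it in DESeq2 (adjusted p = 0.0391). In LK the log2 fold change was 0.02 (SE 0.55; limma adjusted p = 0.999).

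Apaf1, the scaffold of the apoptosome, had 46.2 and 34.6 in WT LSK and 19.7 and 26.8 in Ripk3-KO LSK. These groups did not overlap, with a log2 fold change of -0.77 and a limma adjusted p of 0.182. In LK Apaf1 was between 43.6 and 51.4 in all 4 libraries. Aen, a nuclease of apoptosis, had 35.8 and 41.3 in WT LSK and 49.8 and 64.0 in Ripk3-KO LSK (limma adjusted p = 0.296). Ei24, a membrane protein gene induced by p53, had 56.2 and 33.9 in WT LSK and 84.6 and 56.1 in Ripk3-KO LSK, where 1 knockout library lay just under the higher WT library (limma adjusted p = 0.254). Phlda3, an inhibitor of Akt signaling, was at most 7.24 in every library and higher in the knockout in both populations without a call. Trp53inp1, a stress protein that acts with p53, ran from 12.3 to 38.6 in LSK and from 3.04 to 11.2 in LK, with the knockout libraries apart from each other in both. Zmat3, an RNA-binding protein gene, ran from 0.883 to 11.6 with overlapping genotypes.

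Among the DNA repair genes, Ercc5 encodes the XPG nuclease of nucleotide excision repair. Its signal was 6.55 and 4.56 in WT LSK, 15.2 and 25.2 in Ripk3-KO LSK, 26.7 and 10.2 in WT LK, and 23.8 and 12.5 in Ripk3-KO LK. Both knockout LSK libraries lay above both WT LSK libraries, and in LK the replicates of each genotype differed more than the genotypes. The LSK log2 fold change of 1.67 (SE 0.51) missed the threshold in limma (adjusted p = 0.0905) and edgeR (adjusted p = 0.136) and passed it in DESeq2 (adjusted p = 0.0468). In LK it was 0.05 (SE 0.51; limma adjusted p = 0.991).

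Xpc, which recognizes DNA lesions in the same repair pathway, had 94.2 and 133 in WT LSK, 152 and 134 in Ripk3-KO LSK, 99.5 and 111 in WT LK, and 154 and 161 in Ripk3-KO LK. The genotypes did not overlap in LK, and in LSK the nearest libraries of the genotypes were 133 and 134. The log2 fold change was 0.58 (SE 0.21; limma adjusted p = 0.463) in LK and 0.35 (SE 0.21; limma adjusted p = 0.399) in LSK. Ddb2, a partner of Xpc in lesion recognition, had 12.9 and 19.5 in WT LSK, 24.4 and 34.3 in Ripk3-KO LSK, 10.2 and 11.1 in WT LK, and 12.8 and 13.5 in Ripk3-KO LK. It was higher in the knockout in both populations, with limma adjusted p of 0.297 in LSK and 0.951 in LK, and its exons overlap Acp2 on the opposite strand over 23.8% of their bases, which makes it uncertain.

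Gadd45a, a stress protein of growth arrest and repair, had 20.7 and 19.5 in WT LSK, 14.9 and 18.4 in Ripk3-KO LSK, 34.6 and 33.8 in WT LK, and 15.1 and 18.1 in Ripk3-KO LK. Both knockout libraries lay below both WT libraries in each population, by a wide gap in LK. The log2 fold change was -1.01 (SE 0.37; limma adjusted p = 0.465) in LK and -0.26 (SE 0.36; limma adjusted p = 0.742) in LSK, and an antisense gene overlaps 19.1% of its exon bases. Rrm2b, a subunit of ribonucleotide reductase that supplies nucleotides for repair, had 9.53 and 14.1 in WT LSK, 10.9 and 8.21 in Ripk3-KO LSK, 1.70 and 4.20 in WT LK, and 7.74 and 9.75 in Ripk3-KO LK. Both knockout LK libraries lay above both WT LK libraries and the LSK genotypes overlapped, with a log2 fold change of 1.37 (limma adjusted p = 0.563) in LK, and a pseudogene copy with 96.1% identity over 1051 bases leaves the gene uncertain. Polk, a polymerase that bypasses lesions, was between 1.93 and 4.56 in LSK and at most 1.20 in LK, where it did not reach the mean of 1 needed for the test.

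The cell cycle genes held the members that fell. Plk2, a polo-like kinase of centriole duplication and stress checkpoints, lies at chr13:110395046-110400844 on the plus strand (GRCm38). Its signal was 119.8 and 111 in WT LSK, 51.5 and 46.4 in Ripk3-KO LSK, 35.1 and 26.5 in WT LK, and 7.10 and 6.64 in Ripk3-KO LK. Both knockout libraries lay below both WT libraries in each population. The log2 fold change was -1.22 (SE 0.30) in LSK, with adjusted p of 0.0395 in limma, 0.0325 in edgeR and 0.000848 in DESeq2. In LK it was -2.00 (SE 0.31), with adjusted p of 0.00175 in limma, 0.00225 in edgeR and 2.10e-10 in DESeq2. The limma call in LSK was lost without each of the 8 libraries in turn, with adjusted p from 0.0511 to 0.170, while that in LK was lost only without WT LK replicate 1 (log2 fold change -1.80, adjusted p = 0.115) among the 8. The LSK call was also lost with a pseudocount of 0.1 (adjusted p = 0.0538) and with no filter on low values (0.0612). In all, 7 of the 10 other settings run kept the Plk2 call in LSK.

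Sertad1, a cofactor of E2F transcription and a binder of cyclin-dependent kinase 4, lies at chr7:27486910-27490316 on the plus strand. Sertad1 signal was 255 and 341 in WT LSK, 123 and 101 in Ripk3-KO LSK, 65.0 and 67.9 in WT LK, and 28.4 and 31.2 in Ripk3-KO LK. Here too the knockout libraries lay below WT in both populations, with no overlap. The log2 fold change was -1.39 (SE 0.23) in LSK, with adjusted p of 0.00148 in limma, 0.00161 in edgeR and 3.35e-08 in DESeq2. In LK it was -1.13 (SE 0.23), with adjusted p of 0.0193 in limma, 0.0244 in edgeR and 4.88e-05 in DESeq2. The LSK call was lost without WT LSK replicate 2 (adjusted p = 0.0654) and kept without each of the other 7 libraries. The LK call was lost without WT LK replicate 1 (adjusted p = 0.255), WT LK replicate 2 (0.100003), Ripk3-KO LK replicate 1 (0.320) and Ripk3-KO LK replicate 2 (0.0898), and with no filter on low values (0.207).

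Plk3, a polo-like kinase of the DNA damage and hypoxia response, lies at chr4:117128655-117133963 on the minus strand. Plk3 signal was 42.8 and 30.9 in WT LSK, 17.3 and 16.7 in Ripk3-KO LSK, 42.1 and 15.1 in WT LK, and 3.80 and 5.09 in Ripk3-KO LK. The knockout libraries lay below WT in both populations, and WT LK replicate 1 was far above WT LK replicate 2. Plk3 fell in LK, with a log2 fold change of -2.28 (SE 0.46) and adjusted p of 0.0193 in limma, 0.0223 in edgeR and 2.21e-05 in DESeq2. In LSK the log2 fold change was -1.05 (SE 0.46; limma adjusted p = 0.235). The LK call was lost without WT LK replicate 1 (log2 fold change -1.57, adjusted p = 0.945), Ripk3-KO LK replicate 1 (adjusted p = 0.304) and Ripk3-KO LK replicate 2 (adjusted p = 0.0781), and with no filter on low values (adjusted p = 0.362). An antisense gene, Tctex1d4, overlaps 3.32% of the exon bases of Plk3.

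The other cell cycle genes of the list did not pass the test. Sesn1, a sestrin that restrains growth signaling through mTORC1, had 86.0 and 83.9 in WT LSK and 146 and 114 in Ripk3-KO LSK, groups that did not overlap (log2 fold change 0.60, limma adjusted p = 0.204), while in LK the genotypes overlapped between 45.3 and 62.8. Ckap2, a spindle protein gene, overlapped in both populations, between 49.6 and 92.3. Psrc1, a spindle protein gene as well, had 35.5 and 28.7 in WT LSK, 27.7 and 25.9 in Ripk3-KO LSK, 15.6 and 17.6 in WT LK, and 19.3 and 17.9 in Ripk3-KO LK. Its knockout libraries lay below WT in LSK and above WT in LK, with log2 fold changes of -0.24 and 0.16 and limma adjusted p of 0.757 and 0.972.

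**Figure D1:**
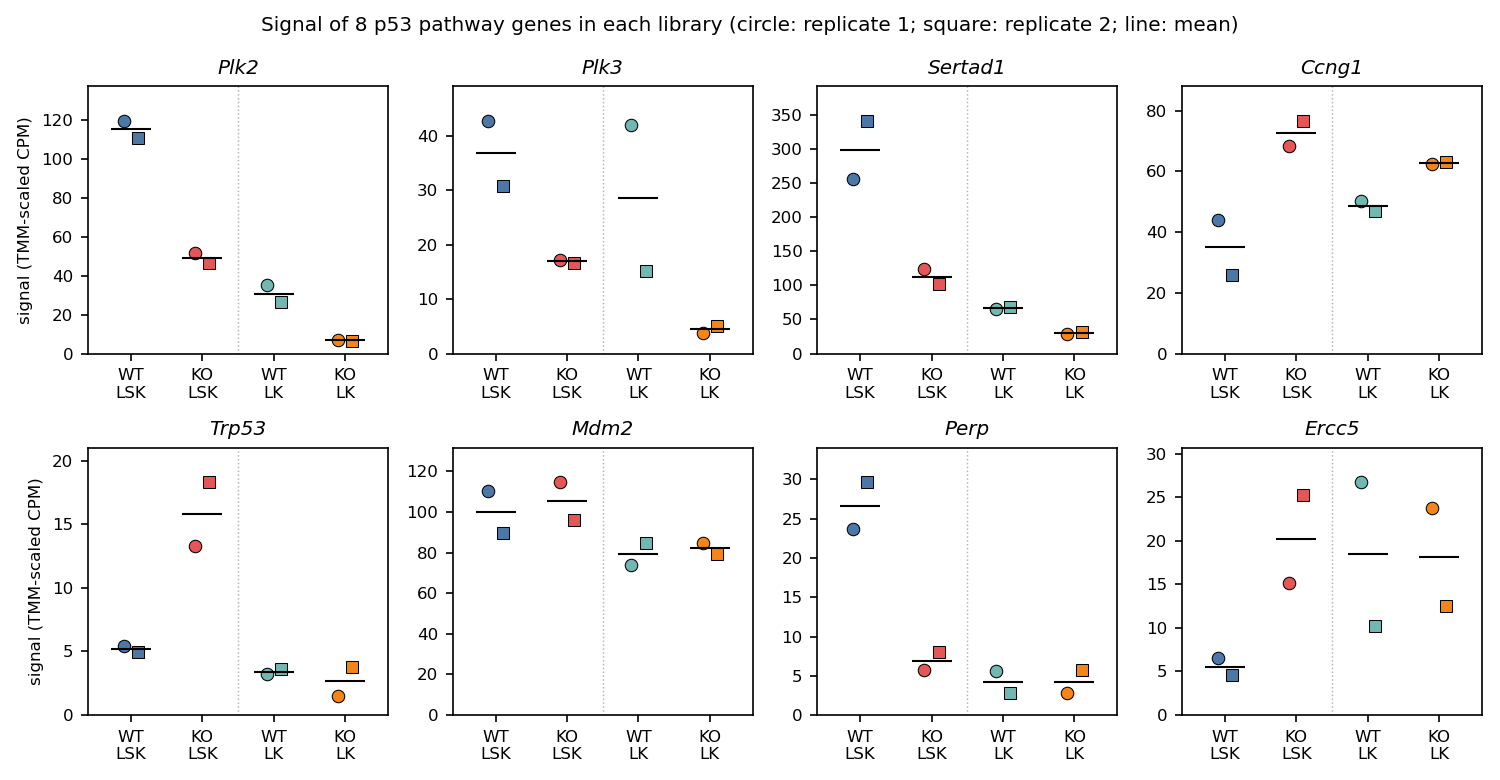
Signal (reads scaled for the library's total and a library factor) of 8 genes in each of the 8 libraries, with circles for replicate 1, squares for replicate 2 and lines for group means. Plk2 and Sertad1 are lower in the Ripk3-KO libraries of both populations, Plk3 is high in 1 of the WT LK libraries (42.1 against 15.1), and Mdm2 overlaps between the genotypes.

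The bases before the starts of the 3 members that fell are printed so that they can be set beside Ccng1. They are the 250 bases upstream of the RefSeq start on GRCm38.p6, at chr13:110394794-110395043 on the plus strand for Plk2, chr4:117133964-117134213 on the minus strand for Plk3 and chr7:27486703-27486952 on the plus strand for Sertad1. Capitals mark the cAMP response element, TGACGTCA, which occurs in Plk2 and begins 62 bases before the start.

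Plk2: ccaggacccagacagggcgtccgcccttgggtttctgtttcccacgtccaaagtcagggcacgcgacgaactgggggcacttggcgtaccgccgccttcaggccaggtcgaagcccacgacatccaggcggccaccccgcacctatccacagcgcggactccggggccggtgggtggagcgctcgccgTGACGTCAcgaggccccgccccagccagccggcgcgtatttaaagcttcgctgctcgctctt
Plk3: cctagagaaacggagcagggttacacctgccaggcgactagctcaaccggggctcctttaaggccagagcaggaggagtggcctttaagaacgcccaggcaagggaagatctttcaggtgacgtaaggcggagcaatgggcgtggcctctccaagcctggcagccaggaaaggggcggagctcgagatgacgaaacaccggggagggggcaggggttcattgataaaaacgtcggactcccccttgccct
Sertad1: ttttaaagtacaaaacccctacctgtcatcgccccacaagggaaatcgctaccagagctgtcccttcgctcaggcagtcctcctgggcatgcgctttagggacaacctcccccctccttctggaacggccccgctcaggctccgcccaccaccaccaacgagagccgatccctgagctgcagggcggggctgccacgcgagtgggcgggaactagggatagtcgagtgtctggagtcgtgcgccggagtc

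RefSeq promoters on GRCm38.p6 were found for 25 of the 33 genes, with 34 starts, and 32851 promoters were in the table. The missing genes are Rrm2b, Trp53inp1, Perp, Xpc, Ddb2, Tnfrsf10b, Ptp4a3 and Zmat3. On either strand of the 250 upstream bases, the p53 half-site matched 10 of the 34 member promoters, those of Aen, Ccng1, Ckap2, Ei24, Gadd45a, Mdm2, Polk, Rps27l, Sesn1 and Trp53, against 7.13% of all promoters. The cAMP response element matched 1 member promoter, that of Plk2 (1.55% of all). The AP-1 site TGANTCA matched 2, of Fas and Mdm4 (6.75% of all), and the CArG box, the motif of serum response factor, matched 0 (1.47% of all). These matches describe letters and not binding.

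None of the metabolic and other members was called by genotype. Rps27l, a ribosomal protein gene that p53 induces, was between 226 and 327 in the 8 libraries, and 6 pseudogene copies of it make its level uncertain. Abhd4, a lipase gene, had 163 to 245 in LSK and 76.5 to 119.6 in LK, and Dcxr, a sugar reductase gene, 27.7 to 40.4 over all libraries. Ephx1, an epoxide hydrolase gene, ran from 0 to 10.03 (log2 fold change -0.48, SE 0.78, in LSK and 0.72, SE 0.79, in LK), and Pltp, a phospholipid transfer gene, from 0 to 1.22, too low to test in either population. Each of the 4 tested genes of this kind had an unadjusted p over 0.05 in limma and no call by edgeR or DESeq2, which gave no adjusted p for Ephx1 in LK.

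Per kilobase of exon, where levels of different genes can be compared, the order of mean signal in LSK began with Rps27l (305), Sertad1 (153) and Abhd4 (60.1). In LK the means over the 4 libraries were 355 for Rps27l, 35.8 for Sertad1 and 30.1 for Abhd4. In the Ripk3-KO LK libraries alone, Sertad1 (21.1 and 23.2) lay below Rps27l, Xpc (27.96 and 29.4), Abhd4 (23.3 and 30.5) and Dcxr (24.3 and 27.03). Mdm2 had 20.2 per kilobase in LSK and 15.9 in LK, and Trp53 2.59 and 0.747. Signal was scaled within each population, so these levels compare genes within a population and not LSK with LK. On one scale Mdm2 did not differ between the populations by limma's test (log2 difference -0.03, adjusted p = 0.902). Mdm4 was last in both, with 0.0116 and 0.00966. The lengths count every annotated exon base of a gene, whether or not it is expressed here. Pseudogene copies of Rps27l, Trp53 and Mdm4 leave their places in the order uncertain. The summed signal of the 33 genes was 1837, 1994, 1861 and 1645 in WT and Ripk3-KO LSK libraries, and 1416, 1280.3, 1226 and 1283 in WT and Ripk3-KO LK libraries, so the genotypes overlapped in both populations.

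By count, 31 of the 33 members passed the filter on low values in LSK and 30 in LK, and the counts that follow are of these and not of all members. In LSK 3 of 31 were called in either direction, against 2.16% of the 16817 genes tested. The 1 that rose stands against 0.892% of genes and the 2 that fell against 1.27%. The knockout libraries lay above both WT libraries for 8 members (21.4% of genes) and below both for 8 (23.2% of genes). The median log2 fold change of the members was -0.18, against -0.01 for all genes, with 13 members above 0 and 18 below. The 24 tested members outside the set named by rule (Trp53, Mdm2, Ccng1, the called members and the 5 smallest p-values) ran from -1.23 (Eda2r) to 0.83 (Ddb2). Centring the libraries on their medians moved all genes by -0.11 in LSK, -0.03 in LK, -0.11 in the interaction and -0.15 between the populations. The count of 3 became 0 without WT LSK replicate 2, 2 without WT LSK replicate 1, and 1 without Ripk3-KO LSK replicate 1, Ripk3-KO LSK replicate 2 or any of the 4 LK libraries. Over all genes, the 363 called became 191 without WT LSK replicate 1, 99 without WT LSK replicate 2, 133 without Ripk3-KO LSK replicate 1 and 127 without Ripk3-KO LSK replicate 2. They became 218 without Ripk3-KO LK replicate 1 and 221 without Ripk3-KO LK replicate 2.

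In LK 3 of 30 members were called, all of them lower in the knockout, against 0.473% of 13949 genes in either direction and 0.373% lower. None rose by limma (0.1004% of genes did), with 2 members above 0 at an unadjusted p under 0.05, Xpc and Rrm2b, and 0 risen by edgeR or DESeq2. DESeq2 gave no adjusted p in LK for Fas, Eda2r, Phlda3, Zmat3 and Ephx1. Knockout libraries lay above both WT libraries for 8 members (20.1% of genes) and below for 5 (19.9% of genes). The median log2 fold change was 0.04, against 0.01 for all genes, with 17 members above 0 and 13 below. The sign of this median turned, to -0.0444, at a mean of at least 5, and it ran from -0.11 to 0.0864 without 1 library. The count of 3 became 0 without WT LK replicate 1, 1 without Ripk3-KO LK replicate 1 or Ripk3-KO LK replicate 2, and 2 without WT LK replicate 2. Over all genes, the 66 called became 15 without WT LK replicate 1, 101 without WT LK replicate 2, 13 without Ripk3-KO LK replicate 1 and 44 without Ripk3-KO LK replicate 2.

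**Figure D2:**
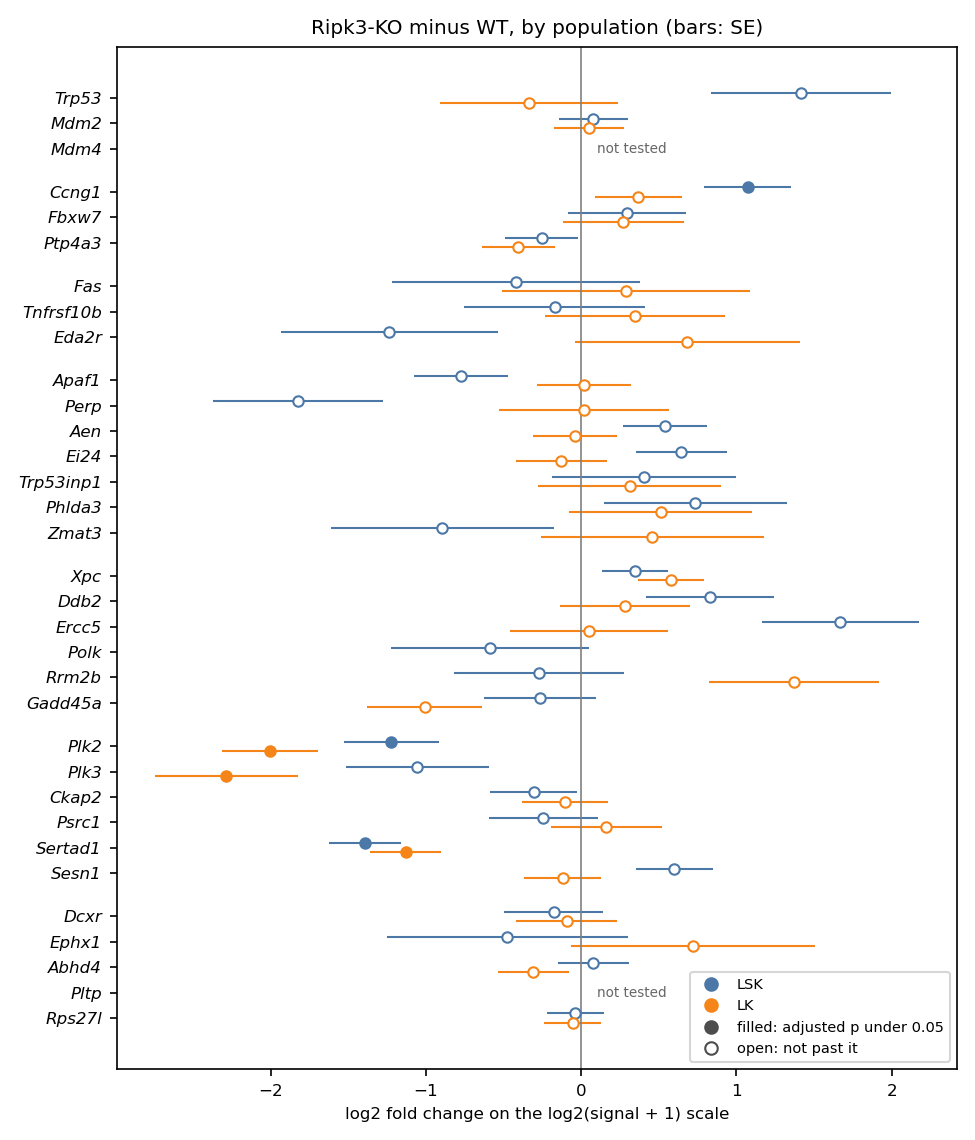
Log2 fold change of Ripk3-KO against WT for the 31 genes tested in LSK (blue) and the 30 tested in LK (orange), grouped by role, with bars for the standard error and filled points for limma adjusted p under 0.05. The filled points are Plk2 and Sertad1 in both populations, Plk3 in LK and Ccng1 in LSK.

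A call in LSK and not in LK, or the reverse, is not a difference between the populations. The interaction, the LSK genotype difference minus the LK one, was called by limma for 0 of 31 members, against 0.358% of 15901 genes. At an unadjusted p under 0.05 there were 4 members and 1613 of the 15901 genes, and edgeR and DESeq2 each called 0 members. The 4, chosen after their values were seen and none of them called, were Trp53 (1.75, limma adjusted p = 0.478), Perp (-1.84, 0.433), Ercc5 (1.62, 0.449) and Rrm2b (-1.64, 0.482). For the members called in 1 population or both, the interaction was 0.78 for Plk2 (limma adjusted p = 0.560), 1.23 for Plk3 (0.536), -0.26 for Sertad1 (0.811) and 0.71 for Ccng1 (0.564). The median over the members was 0.02, against 0.00 for all genes. The sign of this median turned, to -0.0867, with centred libraries, and it ran from -0.26 to 0.18 without 1 library. Genes called over all were 3 with no filter on low values and 155 with DESeq2. The 57 genes called over all became 21 without WT LSK replicate 1, 17 without WT LSK replicate 2, 38 without Ripk3-KO LSK replicate 1 and 28 without Ripk3-KO LSK replicate 2. They became 19 without WT LK replicate 1, 90 without WT LK replicate 2, 18 without Ripk3-KO LK replicate 1 and 28 without Ripk3-KO LK replicate 2.

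Other genes of the p53 pathway came from a pair of lists. Of 19 upstream regulators, 18 were tested in LSK, where 0 rose and 1 fell, the ribosomal protein gene Rpl11, whose product binds Mdm2. Rpl11 signal was 345 and 427 in WT LSK and 235 and 230.2 in Ripk3-KO LSK, and the groups did not overlap. Its log2 fold change was -0.72 (limma adjusted p = 0.0439), a call lost without WT LSK replicate 1 (adjusted p = 0.0734), WT LSK replicate 2 (0.218), Ripk3-KO LSK replicate 1 (0.138), Ripk3-KO LSK replicate 2 (0.168), Ripk3-KO LK replicate 1 (0.0820) and Ripk3-KO LK replicate 2 (0.0800). It was also lost with edgeR (adjusted p = 0.0619), a pseudocount of 0.1 (0.0597), no filter on low values (0.100009) and each population alone (0.0735). In LK limma called 0 of 18 regulators, with 1 at an unadjusted p under 0.05. The most abundant of them, Rpl5, had 646 and 729 in WT LSK and 469.8 and 514 in Ripk3-KO LSK without a call.

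Of 26 other p53 targets, 25 were found and tested in LSK, where 0 rose and 2 fell, and in LK limma called 0 of 24, with 3 at an unadjusted p under 0.05. Cdkn1a, which encodes the cell cycle inhibitor p21, had 366 and 382 in WT LSK, 165 and 135 in Ripk3-KO LSK, 103 and 86.5 in WT LK, and 49.2 and 63.8 in Ripk3-KO LK. As with Plk2 and Sertad1, the knockout libraries lay below WT in both populations. Cdkn1a fell in LSK by a log2 fold change of -1.32 (limma adjusted p = 0.00103), a call kept without each of the 8 libraries, and its log2 fold change in LK was -0.74 (limma adjusted p = 0.201), with an interaction of -0.58 (limma adjusted p = 0.528). Ass1, an enzyme of arginine synthesis, had 71.1 and 78.8 in WT LSK, 34.3 and 22.3 in Ripk3-KO LSK, and 82.6 to 112 in the LK libraries. It fell in LSK by -1.40 (limma adjusted p = 0.00467), a call lost without WT LSK replicate 2 (0.0860) and without Ripk3-KO LSK replicate 2 (0.0888). Btg2, an antiproliferative gene and the most abundant of the list, had 784 and 845 in WT LSK and 803 and 734 in Ripk3-KO LSK.

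Most of the neutrophil markers moved with the genotype. The sort in the study's text used lineage antibodies, among them Gr1 and CD11b, and LSK and LK cells are negative for these. The study uses CD11b for granulocytes and monocytes. Of 8 neutrophil markers, none of them at 0 in all libraries, 6 rose in LSK and 5 in LK, and their summed signal was 694 and 756 in WT LSK, 2287 and 2711 in Ripk3-KO LSK, 778 and 772 in WT LK, and 1674 and 1673 in Ripk3-KO LK. The most abundant, S100a8, had 231 and 273 in WT LSK, 624 and 869 in Ripk3-KO LSK, and 433 to 566 in the LK libraries. Of 8 immediate-early genes, a set that tissue dissociation also induces, 1 fell in LSK (Atf3) and 2 fell in LK (Atf3 and Junb). Atf3 had 528 and 557 in WT LSK, 236 and 185 in Ripk3-KO LSK, 205 and 242 in WT LK, and 87.3 and 109.5 in Ripk3-KO LK, the same order of genotypes as Plk2 and Sertad1, with log2 fold changes of -1.37 and -1.18 (limma adjusted p = 0.000226 and 0.00275). The summed signal of the 8 was 20298, 21463, 24573 and 20720.3 in WT and Ripk3-KO LSK and 9380.2, 9116, 7734 and 9519.6 in WT and Ripk3-KO LK, with Fos the most abundant. Their part in the results for the p53 target genes was not tested. In these bulk samples, fewer cells of a type and less RNA per cell cannot be told apart.

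Of 7 erythroid markers, Gata1 fell in LSK (-1.32) and Car2, the most abundant over the 8 libraries, fell in LK (-0.73), and the summed signal was 1850.5 and 1667 in WT LSK, 1781 and 1887 in Ripk3-KO LSK, 2944 and 2549.9 in WT LK, and 1779 and 1869 in Ripk3-KO LK. Of 10 proliferation genes, Top2a rose (0.73) and Ccnb1 fell (-0.82) in LSK, and the sum lay between 1299 and 1469 in LSK and between 1829 and 1948 in LK. Of the stem cell markers limma called 0 of 7 tested in LSK and 0 of 6 in LK, of the B cell markers 0 of 8 and 0 of 4, of the T cell markers 0 of 7 and 0 of 5, and of the sort markers, Kit and Ly6a, 0 of 2 in each. The summed signal of 7 stem cell markers was 646 and 538 in WT LSK, 759 and 787 in Ripk3-KO LSK, 43.3 and 55.5 in WT LK, and 56.2 and 55.02 in Ripk3-KO LK. That of 8 B cell markers, with Cd79b the most abundant, was 103 and 91.0, 102 and 72.9, 70.2 and 67.8, and 51.0 and 64.8 in the same order. That of 7 T cell markers, with Lck the most abundant, was 101 and 108, 129 and 101, 19.4 and 23.2, and 15.3 and 15.1. By sum, the Ripk3-KO libraries lay above WT for stem cell markers in LSK and for the sort markers in both populations. They also lay above WT for proliferation genes in LK (1928 and 1948 against 1855 and 1829). They lay below WT for erythroid, B cell and T cell markers in LK. Among the stem cell, B cell, T cell and sort markers, those at an unadjusted p under 0.05 were in LSK 1 stem cell marker, 1 B cell marker, 0 T cell markers and Kit. In LK only Kit was among them. Of the erythroid and proliferation genes not called, Car1 was under 0.05 in both populations and below WT. In LK so were Gata1, below WT, and Top2a and Bub1, above WT. The interaction was called for Ripk3 (-2.40) and for S100a8 (1.23, limma adjusted p = 0.0216), and for 0 genes of the other lists.

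**Figure D3:**
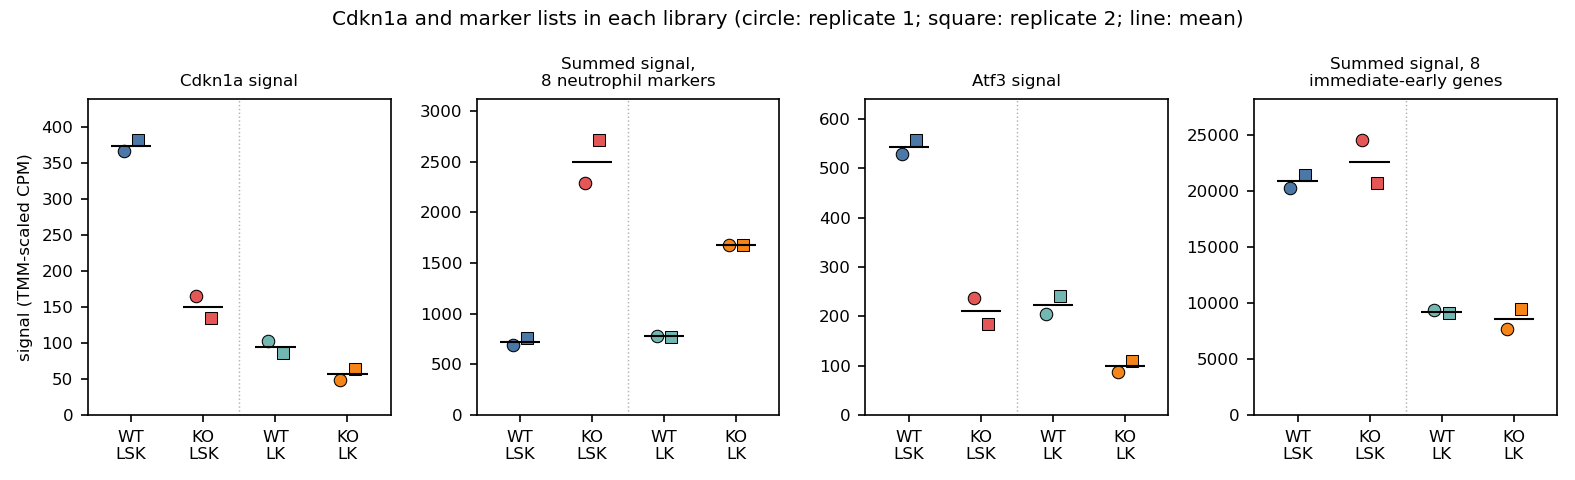
Signal of Cdkn1a and Atf3 and summed signal of 8 neutrophil markers and 8 immediate-early genes in each of the 8 libraries, with circles for replicate 1, squares for replicate 2 and lines for group means. Cdkn1a and Atf3 are lower, and the neutrophil sum higher, in the Ripk3-KO libraries of both populations.

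Between the populations, many members differed. LSK and LK libraries had been scaled apart from each other, so they were put on one scale of reads relative to the library's total (CPM) and compared as LSK minus LK, averaged over the genotypes, on the log2(CPM + 1) scale. Limma called 16 of 31 members, against 33.96% of 15757 genes. Of these, 10 were higher in LSK (13.7% of genes) and 6 were higher in LK (20.2% of genes). The median was 0.47, against 0.07 for all genes, with 20 members above 0 and 11 below. The count of 16 became 9 without WT LSK replicate 2, WT LK replicate 2 or Ripk3-KO LK replicate 1, and 10 without Ripk3-KO LSK replicate 2.

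Plk2 had 105, 97.4, 45.7 and 40.6 CPM in the WT and Ripk3-KO LSK libraries and 40.04, 29.9, 8.07 and 7.61 CPM in the WT and Ripk3-KO LK libraries. Every LSK library lay above every LK library, by a narrow step between Ripk3-KO LSK and WT LK. The log2 difference was 1.92 (limma adjusted p = 4.87e-07), with 1.52 within WT and 2.32 within Ripk3-KO. Sertad1 had 224, 299, 109 and 88.6 CPM in LSK and 74.1, 76.6, 32.3 and 35.8 CPM in LK, again with every LSK library above every LK library. Its difference was 1.64 (limma adjusted p = 7.06e-08), with 1.77 within WT and 1.51 within Ripk3-KO, and both calls held without each of the 8 libraries.

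The p53 gene itself differed less evenly. Trp53 had 4.79, 4.36, 11.8 and 16.0 CPM in the WT and Ripk3-KO LSK libraries and 3.64, 4.05, 1.73 and 4.34 CPM in the WT and Ripk3-KO LK libraries. The WT LSK and WT LK libraries were close, and the Ripk3-KO LSK libraries stood above all others. The difference was 1.08 (limma adjusted p = 0.0467), with 0.20 within WT and 1.95 within Ripk3-KO. This call was kept without Ripk3-KO LK replicate 2 (adjusted p = 0.0425) and lost without each of the other 7 libraries, with adjusted p from 0.0567 to 0.167. It was not made by edgeR (adjusted p = 0.0669) and was made by DESeq2 (adjusted p = 0.0353). It was also lost with a pseudocount of 0.1 (0.0595), no filter on low values (0.112) and centred libraries (0.0822). In all, 3 of the 9 other settings run, DESeq2 among them, kept the Trp53 call. Mdm2 did not differ by the test, at -0.03 (limma adjusted p = 0.902), with 78.5 to 101 CPM in LSK and 84.3 to 96.4 CPM in LK.

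Of the apoptosis genes, Trp53inp1 and Perp were higher in LSK, and Apaf1 and Aen in LK. Perp had 20.7 and 26.0 CPM in WT LSK, 5.06 and 7.02 in Ripk3-KO LSK, and 3.10 to 6.55 in the LK libraries, so the higher LSK level was that of the WT libraries (difference 1.22, limma adjusted p = 0.0185; 2.13 within WT and 0.31 within Ripk3-KO). That call was lost without WT LSK replicate 2 (adjusted p = 0.0570), Ripk3-KO LSK replicate 2 (0.0543), WT LK replicate 2 (0.0773) or Ripk3-KO LK replicate 1 (0.0806). Trp53inp1 had 10.8 to 33.8 CPM in LSK and 3.49 to 12.7 in LK, with a difference of 1.35 (limma adjusted p = 0.0151; 1.31 within WT and 1.39 within Ripk3-KO) that was lost without WT LSK replicate 2 (0.0742), Ripk3-KO LSK replicate 2 (0.106) or Ripk3-KO LK replicate 2 (0.116). Apaf1 had 17.4 to 40.5 CPM in LSK and 49.7 to 58.0 in LK, without overlap (-0.997, limma adjusted p = 0.000920; -0.60 within WT and -1.39 within Ripk3-KO). Aen had 31.4 to 56.0 CPM in LSK and 64.9 to 98.8 in LK, without overlap (-0.96, limma adjusted p = 0.000451; -1.25 within WT and -0.68 within Ripk3-KO), and the calls of both genes held without each of the 8 libraries. With no filter on low values the calls of Perp (0.0627) and Trp53inp1 (0.0903) were lost.

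The repair genes went both ways. Polk had 1.71 to 4.001 CPM in LSK and 0.0861 to 1.37 in LK, with a difference of 1.33 (limma adjusted p = 0.0296; 1.68 within WT and 0.97 within Ripk3-KO) that edgeR (adjusted p = 0.126) and DESeq2 (adjusted p = 0.0715) did not call. It was kept without Ripk3-KO LSK replicate 1, WT LK replicate 1 or Ripk3-KO LK replicate 1, and lost without each of the other 5 libraries (adjusted p from 0.0595 to 0.141), and was also lost with no filter on low values (0.0682) and centred libraries (0.0505). Ercc5 had 5.75 and 4.001 CPM in WT LSK, 13.5 and 22.1 in Ripk3-KO LSK, and 11.5 to 30.4 in LK (-0.98, limma adjusted p = 0.0382; -1.77 within WT and -0.18 within Ripk3-KO). Its call was lost without WT LSK replicate 2 (0.107), Ripk3-KO LSK replicate 1 (0.119), WT LK replicate 1 (0.244) or Ripk3-KO LK replicate 1 (0.171), and with no filter on low values (0.118). Gadd45a had 13.2 to 18.1 CPM in LSK and 17.1 to 39.4 in LK (-0.72, limma adjusted p = 0.0355; -1.10 within WT and -0.35 within Ripk3-KO), a call kept without WT LSK replicate 1 and lost without each of the other 7 libraries (adjusted p from 0.0507 to 0.129) and by edgeR (adjusted p = 0.0512).

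The other called members were as follows. Fbxw7 (0.79, limma adjusted p = 0.0297), Sesn1 (0.63, 0.00790), Abhd4 (0.62, 0.00559) and Ptp4a3 (0.49, 0.0264) were higher in LSK. Rps27l (-0.59, limma adjusted p = 0.00126) and Ccng1 (-0.52, 0.0489) were higher in LK. Within WT and within Ripk3-KO the differences were 0.28 and 0.99 for Sesn1, 0.43 and 0.81 for Abhd4, and -0.87 and -0.17 for Ccng1. They were 0.78 and 0.79 for Fbxw7, 0.42 and 0.57 for Ptp4a3, and -0.60 and -0.59 for Rps27l. The Ripk3-KO LSK libraries had more Ccng1 (60.6 and 67.1 CPM) than the WT LK libraries (57.2 and 52.9 CPM). The calls of Sesn1, Abhd4 and Rps27l held without each of the 8 libraries. That of Fbxw7 was kept without WT LSK replicate 1 or Ripk3-KO LSK replicate 1 and lost without each of the other 6 (adjusted p up to 0.106). The call of Ptp4a3 was lost without WT LSK replicate 2 (0.0995), Ripk3-KO LSK replicate 1 (0.153), WT LK replicate 1 (0.0694), WT LK replicate 2 (0.0553) or Ripk3-KO LK replicate 1 (0.144). That of Ccng1 was kept without WT LSK replicate 1 (0.0105) and lost without each of the other 7, with adjusted p up to 0.211, and edgeR (adjusted p = 0.101) and DESeq2 (adjusted p = 0.0957) did not make it. It was also lost with a pseudocount of 0.1 (adjusted p = 0.0548) and no filter on low values (0.0880). With centred libraries the calls of Fbxw7 (0.0720) and Ptp4a3 (0.109) were lost, and that of Ptp4a3 was lost with no filter too (0.119). The 15 tested members that were not called ran from -0.39 (Xpc) to 1.23 (Ephx1).

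Of the other pathway genes, 3 of 18 upstream regulators were called between the populations, with Crebbp, an acetyltransferase of p53, higher in LSK (0.76) and Rpl5 (-0.47) and the DNA damage kinase gene Prkdc (-0.59) higher in LK. Of 25 other targets, 6 were higher in LSK, among them Gdf15, a secreted stress factor (2.65), and Cdkn1a (1.32), and 11 were higher in LK, among them the apoptosis genes Bid (-1.31) and Bax (-0.74). The stem cell markers (6 of 7 higher in LSK), the erythroid markers (5 of 7 higher in LK and 1 in LSK), the proliferation genes (9 of 10 higher in LK) and the immediate-early genes (7 of 8 higher in LSK) differed between the populations as well. Among neutrophil markers 2 of 8 were higher in LSK and 2 in LK, and 2 of 6 B cell markers and 2 of 7 T cell markers were higher in LSK. Their part in the differences of the p53 target genes was not tested.

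**Figure D4:**
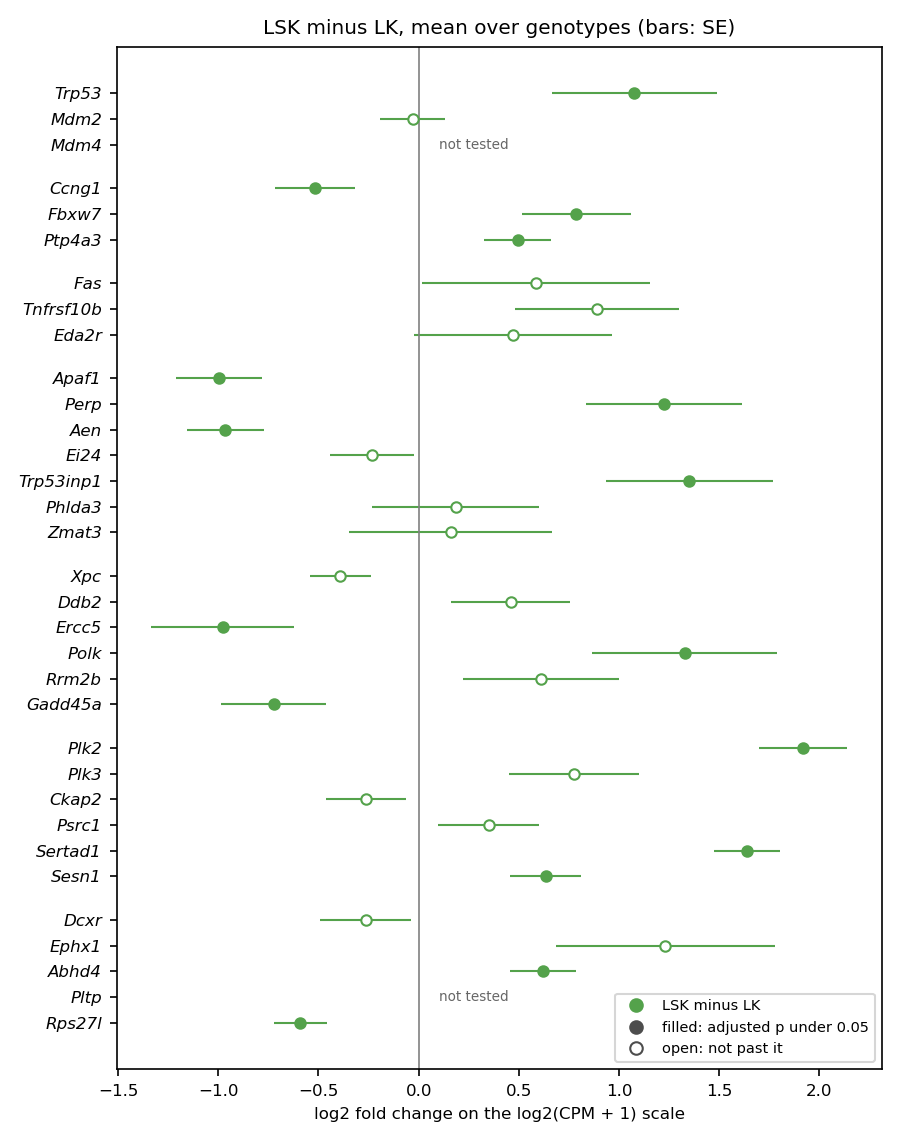
Log2 difference of LSK and LK cells (LSK minus LK, mean over the genotypes, log2(CPM + 1) scale) for the 31 genes tested, grouped by role, with bars for the standard error and filled points for limma adjusted p under 0.05. Plk2 (1.92) and Sertad1 (1.64) lie farthest to the right, and Apaf1 (-0.997), Ercc5 (-0.98) and Aen (-0.96) farthest to the left.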

How the data were processed

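The files the authors deposited hold 29955 gene names in 8 libraries, with values headed FPKM that are called signal here. In each library 100% of values above 0 are whole multiples (tolerance 0.01) of one step, so signal is CPM divided by a TMM factor within each population, with no division by length. The submitters' processing notes name TopHat and mm9, with versions not given in the sources used here. The test planned for FPKM was kept for signal.

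Limma 3.58.1 (R 4.3.3) was fitted with a trend to log2(signal + 1) of all 8 libraries with 4 group means, for genes with a mean of at least 1 over the libraries of a comparison, two-sided, with Benjamini-Hochberg adjustment over all genes tested. Recovered reads gave the joint TMM CPM of the population comparison and the alternatives with edgeR 4.0.16 and DESeq2 1.42.0. Other alternatives were a pseudocount of 0.1, no filter, a mean of at least 5, median-centred libraries, no X and Y genes, each population alone, a replicate block, and each library left out. Code was tested on simulated data.

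Named genes are Trp53, Mdm2, Mdm4, Ccng1, called members, and the 5 smallest p-values per genotype comparison. For the population comparison they are the 5 largest called differences in each direction. From other lists they are called genes and the most abundant. Members named beyond that, such as Rrm2b and Psrc1, were chosen after their values were seen. Members and lists were chosen with earlier results of these data known.

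Positions and exon lengths come from GENCODE on GRCm38 and pseudogene copies from BLAST 2.17.0 (at least 90% identity over 200 bases). Figures and tables used Python 3.11.15.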

Additional observations from a re-analysis of the deposited data

Results flagged for a closer look

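Psrc1 stood out because its knockout libraries lay on opposite sides of WT in the 2 populations. Neither difference passed the test (limma adjusted p = 0.757 in LSK and 0.972 in LK). The share of all genes with such a pattern was not counted. Both Ripk3-KO LSK libraries (27.7 and 25.9) were below both WT LSK libraries (35.5 and 28.7), and both Ripk3-KO LK libraries (19.3 and 17.9) were above both WT LK libraries (15.6 and 17.6). The genotype difference in LSK minus that in LK was -0.40 (log2; SE 0.50), and limma did not call it (adjusted p = 0.809).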

How the results depend on the processing

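Plk2 and Sertad1 kept their direction in both populations, and Plk3 in LK, under every alternative run. Their calls in LK held under edgeR, DESeq2, the pseudocount, centring and each population alone, and those of Plk3 (adjusted p = 0.362) and Sertad1 (0.207) were lost with no filter. In LSK the Ccng1 call held at a mean of at least 5, without X and Y genes and with DESeq2. It was lost with a pseudocount of 0.1 (0.0662), no filter (0.0965), centring (0.0761), the replicate block (0.0568), each population alone (0.136) and edgeR (0.0970). The cause of the changes listed next was not tested.

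In LSK, members called were 1 with a pseudocount of 0.1, 1 with no filter and 5 with DESeq2, and genes called were 198 with no filter, 195 with each population alone, 237 with edgeR and 613 with DESeq2. The LSK member median was -0.10 at a mean of at least 5, -0.29 with centred libraries and -0.24 with DESeq2, and Mdm2 turned to -0.0309 with centred libraries. In LK, genes called were 9 with no filter, 125 with each population alone and 177 with DESeq2, members called were 1 with no filter, and the median was -0.0444 at a mean of at least 5. Interaction genes were 3 with no filter and 155 with DESeq2, and the interaction median was 0.0943 at a mean of at least 5, -0.0867 with centred libraries, -0.0498 with edgeR and -0.0510 with DESeq2. Population members were 9 with no filter, and the population median was 0.32 with centred libraries, 0.55 with edgeR and 0.57 with DESeq2.

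Leaving out 1 library at a time assumes that a lone library varies like the other groups. In LSK it gave 99 to 262 genes, 0 to 2 members and a median from -0.18 to -0.0114. In LK it gave 13 to 101 genes, 0 to 3 members and a median from -0.11 to 0.0864. The interaction had 17 to 90 genes and a median from -0.26 to 0.18, and the population comparison 9 to 15 members and a median from 0.33 to 0.54. Mdm2 in LSK ran from -0.0696 without WT LSK replicate 2 to 0.230 without WT LSK replicate 1, with -0.0445 without Ripk3-KO LSK replicate 1, Mdm2 in LK ran from -0.0472 without WT LK replicate 1 to 0.147 without WT LK replicate 2, and Trp53 in LK from -0.798 without Ripk3-KO LK replicate 2 to 0.127 without Ripk3-KO LK replicate 1.

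With the replicate block, LSK had 317 genes and 2 members, LK 64 and 3, and the population comparison 5157 and 14. Deviations of same-numbered libraries correlated at -0.0109 and -0.0993 across genotypes in LSK and LK, and at -0.0138 and -0.149 across populations in WT and Ripk3-KO, so the numbers did not pair the libraries. A crossed pairing, chosen after seeing the data, called 1 member and 300 genes in LSK and 3 members and 74 genes in LK.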
